A study of Caenorhabditis elegans with 80 samples.

Results

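The furrow collagens of Caenorhabditis elegans are the products of dpy-2, dpy-3, dpy-7, dpy-8, dpy-9 and dpy-10, and the values given here are the strain differences of these genes on oligonucleotide arrays. The members were chosen by name, as all probes of the 6 genes. Of the 23232 probes, which name 16367 genes, 5 carry the name of one of them, a single probe each for dpy-2, dpy-3, dpy-7, dpy-8 and dpy-9. No probe carries the name dpy-10, so 5 of the 6 genes were measured under their own name. In assembly WBcel235 dpy-2 and dpy-10 lie on chromosome II, dpy-9 lies on chromosome IV and dpy-3, dpy-7 and dpy-8 lie on chromosome X.

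The cuticle of the worm is an extracellular matrix of collagens that the hypodermis makes anew before each molt. The furrow collagens form the annular furrows, the circumferential grooves between the ridges of the cuticle, and loss of any one of them gives a short, fat (dumpy) worm. Their mRNAs appear early within a larval stage and disappear again before the molt, as one of several waves of collagen transcripts. Loss of the furrows is also known to turn on osmotic stress, detoxification and antimicrobial peptide genes in the hypodermis.

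The samples were L3 larvae of recombinant inbred (RI) strains bred from the Bristol strain N2 and the Hawaiian strain CB4856, grown for 40 h at 24 °C or for 72 h at 16 °C. The worms were hermaphrodites on bacterial lawns, and the hours to the L3 stage had been set from the size of the gonad and vulva. On each of 40 arrays per temperature the RNA of 2 RI strains was hybridized in 2 colours, one strain in each dye. A pair of strains is written here as the Cy3 strain and then the Cy5 strain. By their labels the arrays hold 77 strains at 24 °C and 78 at 16 °C, and 39 of the pairs have the same strains on the same dyes at both temperatures. Temperature and hours of growth change together and cannot be told apart. Each array is 1 sample, and each pair of strains stands on 1 array per temperature. Each strain was grown from synchronized eggs on separate dishes for each temperature, and whether this was done on separate days is not given. A strain difference on 1 array cannot be separated from the state of the 2 cultures on it.

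The value on an array is 1 normalized log ratio per probe, read as log2, so that a ratio of 1 is a 2-fold difference between the 2 strains. Which dye stands in the numerator is not given in the sources used here. A positive or negative sign therefore does not say which strain of a pair was higher, while correlations between genes across arrays do not depend on it as long as all arrays run the same way. The table holds no levels, so the amount of a collagen mRNA, its change with temperature and the presence of hypodermis markers could not be measured. The RNA came from whole worms, in which fewer hypodermal cells and less RNA per cell cannot be told apart. Every array of a temperature had the same median absolute ratio over all probes, 0.66 at 24 °C and 0.59 at 16 °C, and array medians ran from -0.02 to 0.04. By their labels WN80 and WN38 stand on 2 arrays at each temperature and WN65 on 2 arrays at 24 °C. If the labels hold, these arrays share a strain. The paper describes all the RI strains as paired on 40 arrays, which leaves no place for a repeated strain. Whether the repeated labels are right could not be checked.

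At 24 °C the 5 furrow collagens differed between strains by amounts that were ordinary for this table. The ratio of dpy-2 was -3.26 on the lowest array, 0.25 in the median and 1.61 on the highest array at 24 °C, with an SD of 1.05 (n = 40 arrays). The ratio of dpy-7 ran from -2.69 over a median of 0.13 to 1.92, with an SD of 0.92. The ratio of dpy-8 ran from -3.01 over 0.08 to 1.53, with an SD of 0.98. These SDs lay below the median SD of all probes at 24 °C, which was 1.11. The ratio of dpy-9 ran from -3.08 over 0.19 to 1.56, with an SD of 0.96. The widest of the 5 was dpy-3, from -3.70 over 0.15 to 2.61 with an SD of 1.43, above that of 76.5% of all probes, while dpy-7 stood above 33.3%, dpy-9 above 36.9% and dpy-8 above 38.4%. The ratio of dpy-3 was beyond 1 in size on 16 of the 40 arrays and beyond 2 on 6. For dpy-2, dpy-7, dpy-8 and dpy-9 it was beyond 1 on 12, 7, 10 and 9 arrays, and beyond 2 on 1 or 2.

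At 16 °C the SD of each of the 5 probes was smaller, while the distance from the lowest to the highest array was larger for dpy-9. The ratio of dpy-2 was -1.53 on the lowest array, 0.03 in the median and 2.09 on the highest, with an SD of 0.86. The ratio of dpy-3 ran from -2.03 over 0.36 to 2.27, with an SD of 1.02. The ratio of dpy-7 ran from -1.53 over 0.09 to 2.03, with an SD of 0.75. The gene with the smallest spread was dpy-8, from -1.36 over -0.16 to 1.52 with an SD of 0.71, above that of only 19.3% of all probes at 16 °C. The ratio of dpy-9 ran from -2.99 over -0.19 to 1.93, with an SD of 0.93. The median SD of all probes at 16 °C was 1.05, and all 5 lay below it.

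**Figure D1:**
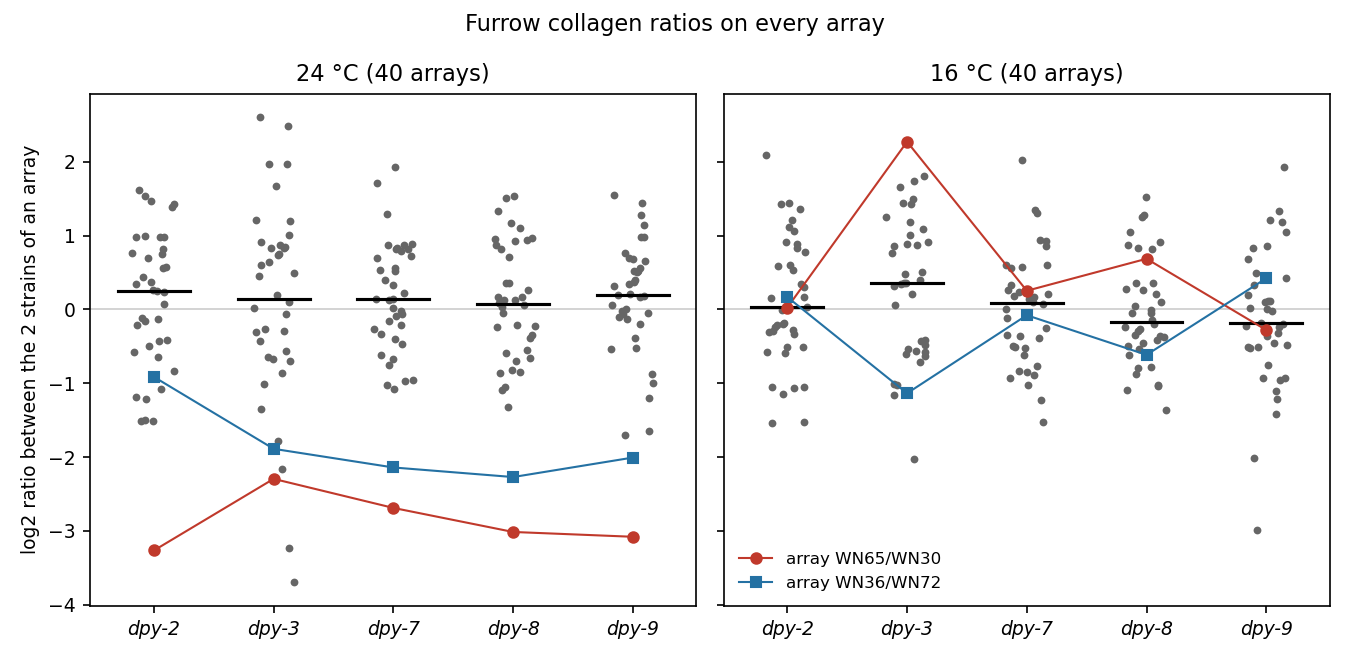
The log2 ratio between the 2 strains of an array (vertical axis) for the 5 measured furrow collagens (horizontal axis), with 40 arrays at 24 °C on the left and 40 at 16 °C on the right. Points are arrays, black bars are medians, and the lines join the 5 genes on the arrays WN65/WN30 (circles) and WN36/WN72 (squares), which are low for all 5 genes at 24 °C but not at 16 °C.

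A single array held the lowest ratio of 4 of the 5 genes at 24 °C. On the array of WN65 and WN30 the ratios were -3.26 for dpy-2, -2.29 for dpy-3, -2.69 for dpy-7, -3.01 for dpy-8 and -3.08 for dpy-9. On no other array of either temperature were all 5 ratios beyond 1 in the same direction. On the array of WN36 and WN72 at 24 °C the ratios of dpy-7, dpy-8 and dpy-9 were the next lowest, at -2.14, -2.27 and -2.01, with -0.91 for dpy-2 and -1.89 for dpy-3. At 16 °C neither pair was low for all 5 genes. There WN65 and WN30 had 0.03 for dpy-2, 0.25 for dpy-7, 0.69 for dpy-8 and -0.28 for dpy-9, and 2.27 for dpy-3, the highest of its 40 arrays. WN36 and WN72 had 0.17 for dpy-2, -1.14 for dpy-3, -0.08 for dpy-7, -0.61 for dpy-8 and 0.42 for dpy-9 at 16 °C. The pair WN16 and WN34 was low at both temperatures for the 4 genes other than dpy-3. For dpy-2, dpy-7, dpy-8 and dpy-9 it had -0.84, -1.08, -1.32 and -1.70 at 24 °C. At 16 °C these were -1.53, -1.53, -1.1 and -2.01, the only array there with all 4 beyond 1 in the same direction. Its dpy-3 ratio was -1.02 at 24 °C and 0.36 at 16 °C.

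The array WN65/WN30 was not wide as a whole, since its SD over all probes at 24 °C was 1.19 and 37 of the 40 arrays had a larger one. Low ratios were also seen for molting genes and other shape collagens, but not for the genes of collagen processing. Of 19 molting genes with a probe, 8 had a ratio below -2 on this array (42.1%), against 3.95% of all probes, and their median was -1.34. The lowest of them were noah-2, a zona pellucida domain protein of the precuticle, at -4.49, and mlt-11, a protease inhibitor needed for molting, at -4.33. Of 12 other collagens that set body shape, 4 lay below -2, and their median was -0.96. Of 11 collagen processing genes 0 lay below -2, with a median of -0.09 and a highest ratio of 4.57. The 6 hypodermis markers had a median of -0.81, with 0 below -2 and 3 below -1. Below -1 also lay 10 of the molting genes, 6 of the other shape collagens, 2 of the processing genes and 15.5% of all probes. The 5 germline markers had a median of 0.58, while the medians of muscle, intestine and neuron markers lay between -0.10 and 0.22. The part of tissue content in these ratios was not tested. At 16 °C the medians of the same pair were 0.36 for the molting genes and 0.77 for the other shape collagens. The other array labelled with WN65 at 24 °C, in the other dye, gave 0.99 for dpy-2, -0.31 for dpy-3, 0.56 for dpy-7, -0.23 for dpy-8 and 0.56 for dpy-9. The array WN65/WN30 was singled out for its values, so these counts are a description. The relations among the furrow collagens at 24 °C, the counts of related probes and the calls of list genes are given with and without it. Among the results given only with it are the relations of T14B4.19, the list medians and the counts without adjustment of p.

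The strain WN80, which by the labels stands on an array with WN1 and on another with WN7, gave ratios of opposite sign at the 2 temperatures. With WN80 in Cy3 and WN7 in Cy5 all 5 ratios were positive at 24 °C, from 0.53 for dpy-7 to 1.98 for dpy-3. The same 2 strains in the same dyes had 5 negative ratios at 16 °C, from -0.76 for dpy-9 to -2.03 for dpy-3, the lowest dpy-3 ratio at that temperature. With WN1 in Cy3 and WN80 in Cy5 all 5 were negative at 24 °C, from -0.02 for dpy-9 to -1.05 for dpy-8. At 16 °C that pair had positive ratios for 4 of the 5, from 0.10 for dpy-9 to 1.11 for dpy-2, and -0.57 for dpy-3. On these 4 arrays the sign turned with the dye of WN80 and with the temperature for 4 of the genes, dpy-3 being the exception at 16 °C. The strain WN38, which by the labels also stands on 2 arrays at each temperature, showed no such turn. With WN58 in Cy3 and WN38 in Cy5 the ratios ran from -0.07 for dpy-7 to 1.47 for dpy-2 at 24 °C, and at 16 °C from 0.00 for dpy-9 to 1.75 for dpy-3. With WN38 in Cy3 and WN47 in Cy5 they had mixed signs at both temperatures, from -0.86 for dpy-3 to 0.83 for dpy-7 at 24 °C and from -0.37 for dpy-8 to 0.91 for dpy-3 at 16 °C. No test was made on single arrays.

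Across arrays, dpy-2, dpy-7, dpy-8 and dpy-9 varied together at 24 °C, while the r of each with dpy-3 was lower, a difference that was not tested. The 4 genes had the same sign on 25 of the 40 arrays at 24 °C and on 20 of the 40 at 16 °C, and with dpy-3 the counts were 16 and 10. To test the relations, the Pearson r of each furrow collagen with all other 23231 probes was computed across the 40 arrays of a temperature, and the p-values were adjusted by the Benjamini-Hochberg method over all of them. A pair of collagens was called where the adjusted p was below 0.05 from both genes. Of all probes, 0.663% were positively related to dpy-2 at 24 °C by this test, 2.52% to dpy-3, 1.2% to dpy-7, 0.861% to dpy-8 and 1.14% to dpy-9. Against this background, 6 of the 10 pairs of furrow collagens were called at 24 °C.

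The 6 pairs were all those among dpy-2, dpy-7, dpy-8 and dpy-9, with r between 0.74 and 0.85. The closest pair was dpy-7 with dpy-9, with r = 0.85 (95% interval 0.73 to 0.92, rho = 0.77, adjusted p = 8.8e-08). Next was dpy-2 with dpy-7, with r = 0.84 (0.72 to 0.92, rho = 0.82, adjusted p = 1.6e-07). On chromosome X, dpy-7 and dpy-8 had r = 0.79 (0.63 to 0.88, adjusted p = 7.7e-06), and dpy-2 with dpy-9, on chromosomes II and IV, had r = 0.77 (0.60 to 0.87, adjusted p = 2.5e-05). For dpy-8 with dpy-9 r was 0.75 (0.58 to 0.86, adjusted p = 4.2e-05), and for dpy-2 with dpy-8 it was 0.74 (0.56 to 0.85, adjusted p = 1.2e-04). The intervals of the 6 pairs overlap, and their order was not tested. The permutation p of r was 1.0e-05 for each of the 6, the smallest that 100000 resamples can give, and that of rho was at most 4.0e-05. Without the array WN65/WN30 the r of the 6 pairs lay between 0.65 and 0.80, and all 6 were still called. Without the 2 arrays farthest from the median of the first gene they lay between 0.59 and 0.79.

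The 4 pairs with dpy-3 were not called at 24 °C, although each r was positive. The r of dpy-3 was 0.49 with dpy-7 (0.21 to 0.70, adjusted p = 0.062) and 0.48 with dpy-8 (0.20 to 0.69, adjusted p = 0.082). It was 0.38 with dpy-9 (adjusted p = 0.23) and 0.34 with dpy-2 (adjusted p = 0.38). The permutation p for these 4 relations, not adjusted for the number of probes, lay between 0.0014 and 0.034. The relations with dpy-7 and dpy-8 were near the threshold. That with dpy-7 passed when any 1 of 5 arrays was left out, and that with dpy-8 when 1 array was. Leaving out the array WN65/WN30 lowered r to 0.43 with dpy-7 (adjusted p = 0.22) and 0.42 with dpy-8 (adjusted p = 0.23). With dpy-9 it fell to 0.29 and with dpy-2 to 0.24. Of the 25 arrays at 24 °C on which the other 4 genes shared a sign, dpy-3 had that sign on 16. The arrays with its 2 lowest ratios are given as examples. On the array of WN71 and WN79 at 24 °C dpy-3 was at -3.70, its lowest ratio, while the others were at 0.35 for dpy-2, 0.13 for dpy-7, -0.34 for dpy-8 and 0.18 for dpy-9. On the array of WN46 and WN69 dpy-3 was at -3.23 and the others lay between -0.46 and 0.34. Without these 2 arrays, the farthest from the dpy-3 median, r was 0.56 with dpy-7, 0.55 with dpy-8 and 0.50 with dpy-9. Without the 2 arrays farthest from the median of the other gene it was 0.38, 0.36 and 0.22 in that order. For dpy-2 with dpy-3 it was 0.25 without the 2 arrays farthest from the dpy-2 median.

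**Figure D2:**
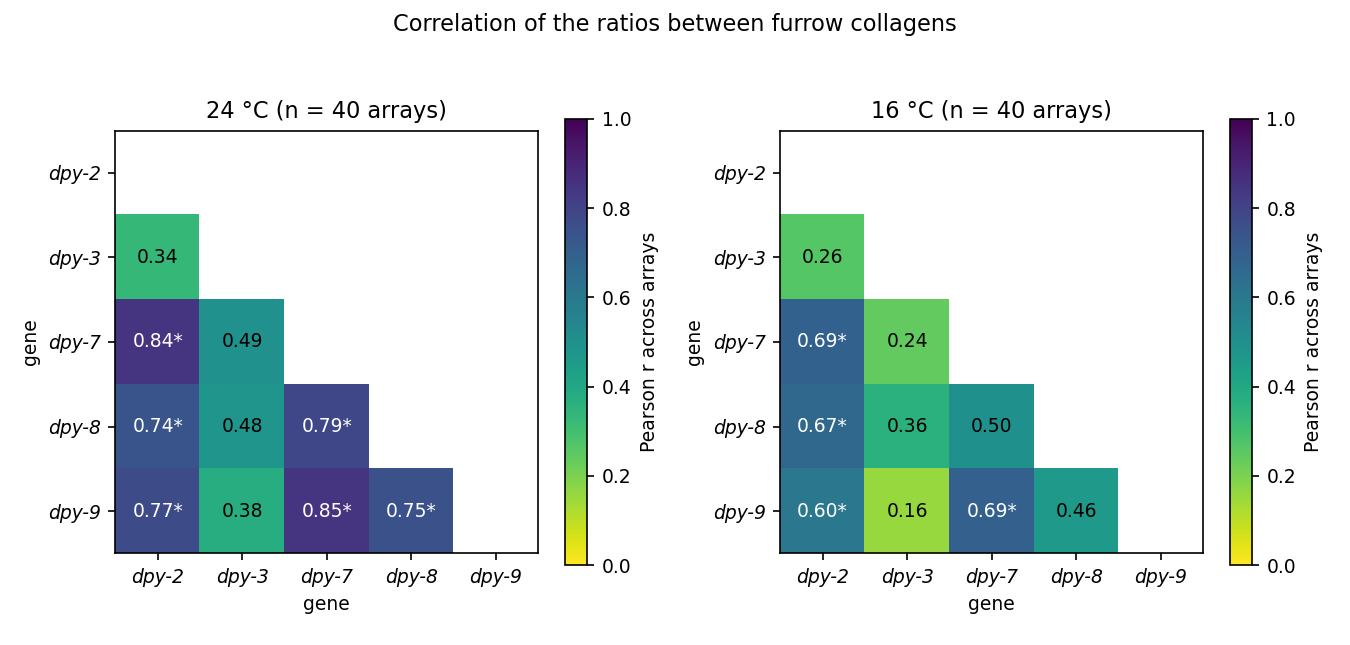
Pearson r of the log2 ratios across arrays for each pair of furrow collagens, at 24 °C on the left and at 16 °C on the right (n = 40 arrays each), with the colour showing r from 0 to 1. An asterisk marks a pair called from both genes over all probes. The row and column of dpy-3 hold no asterisk, and each r at 24 °C is above its counterpart at 16 °C.

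At 16 °C 4 of the 10 pairs were called, 3 of them with dpy-2. The background at 16 °C was 0.344% of all probes positively related to dpy-2, 1.2% to dpy-3, 0.809% to dpy-7, 0.215% to dpy-8 and 0.353% to dpy-9. For dpy-7 with dpy-9 r was 0.69 (0.49 to 0.83, adjusted p = 0.0022), and for dpy-2 with dpy-7 it was 0.69 (0.48 to 0.82, adjusted p = 0.0027). For dpy-2 with dpy-8 it was 0.67 (0.45 to 0.81, adjusted p = 0.0073), and for dpy-2 with dpy-9 0.60 (0.36 to 0.77, adjusted p = 0.022). The call of dpy-2 with dpy-9 ended without the array of WN16 and WN34 (r = 0.56, adjusted p = 0.074). The other pairs among these 4 genes were not called, at r = 0.50 for dpy-7 with dpy-8 (adjusted p = 0.11) and r = 0.46 for dpy-8 with dpy-9 (adjusted p = 0.17). Leaving out the array of WN5 and WN25 brought dpy-7 with dpy-8 past the threshold (r = 0.58, adjusted p = 0.039). With dpy-3 the r at 16 °C lay between 0.16 and 0.36, with adjusted p between 0.35 and 0.78. The permutation p of r lay between 1.0e-05 and 4.0e-05 for the 4 called pairs and between 0.022 and 0.34 for the pairs with dpy-3.

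**Figure D3:**
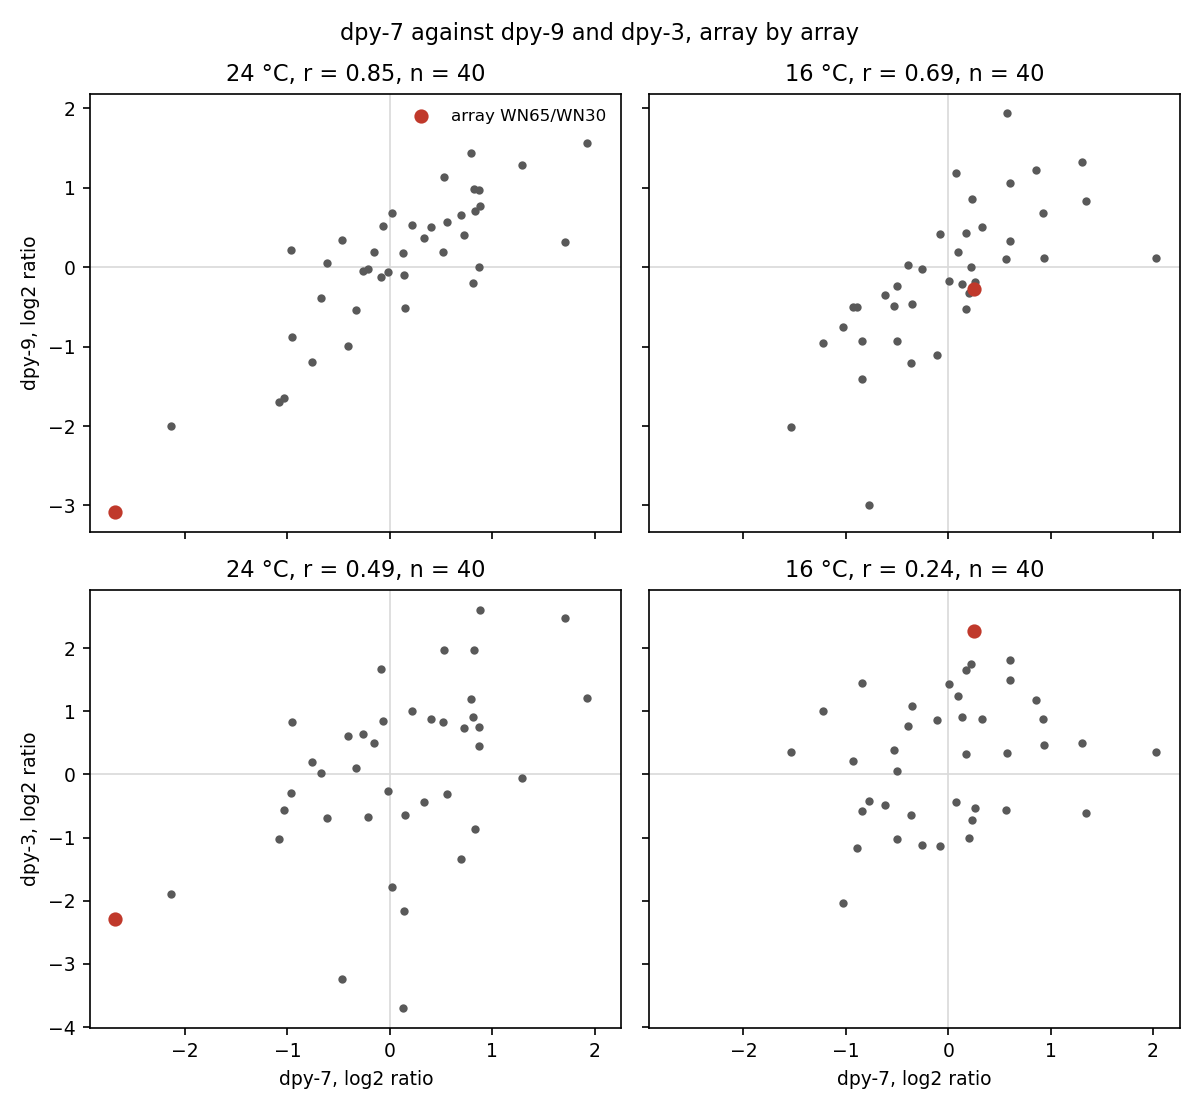
The log2 ratio of dpy-7 (horizontal axis) against that of dpy-9 (top) and dpy-3 (bottom) on each array, at 24 °C on the left and at 16 °C on the right, with 40 arrays per panel and the array WN65/WN30 as the large point. The relation with dpy-9 is seen along the whole range at 24 °C (r = 0.85), while some arrays at 24 °C have a low dpy-3 and a dpy-7 near 0.

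In all 10 pairs r was higher at 24 °C than at 16 °C, by 0.07 to 0.29. The differences were tested on the Fisher z scale with adjustment over all probes, and 0 of the 10 pairs were called, the lowest adjusted p being 0.74. Of all probes, 0.00861% had an r with dpy-2 that differed by this test, 0.0689% with dpy-7, 0.0129% with dpy-9 and 0.0% with dpy-3 and dpy-8. At an unadjusted p under 0.05 there were 2 pairs, dpy-7 with dpy-8 (0.79 at 24 °C and 0.50 at 16 °C, p = 0.027) and dpy-8 with dpy-9 (0.75 at 24 °C and 0.46 at 16 °C, p = 0.039). The 6 calls at 24 °C and the 4 at 16 °C were thus not shown to differ. Without the array WN65/WN30 the difference turned to -0.02 for dpy-2 with dpy-3 and for dpy-2 with dpy-8.

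No repeat of the strain differences from one temperature to the other was detected for any furrow collagen. Across the 39 shared pairs the r of the ratio at 24 °C with the ratio at 16 °C was -0.06 for dpy-2 (95% interval -0.36 to 0.27), 0.09 for dpy-3 (-0.23 to 0.39) and 0.07 for dpy-7 (-0.25 to 0.38). It was -0.14 for dpy-8 (-0.44 to 0.18) and -0.05 for dpy-9 (-0.36 to 0.27). None of the 5 was called, the permutation p lay between 0.39 and 0.77, and none passed without adjustment. Over all probes 242 of 23232 (1.04%) had a positive r that passed the adjusted test, and the median r was 0.03. Spearman's rho lay between -0.11 and 0.13 (permutation p between 0.43 and 0.69), and without the 2 farthest pairs r lay between -0.14 and 0.12. The sign of the ratio was the same at both temperatures for 14 of the 39 pairs for dpy-2, 21 for dpy-3, 21 for dpy-7, 16 for dpy-8 and 17 for dpy-9. The upper bounds of the 5 intervals lie between 0.18 and 0.39, so repeats below these bounds were not excluded by the 39 pairs.

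**Figure D4:**
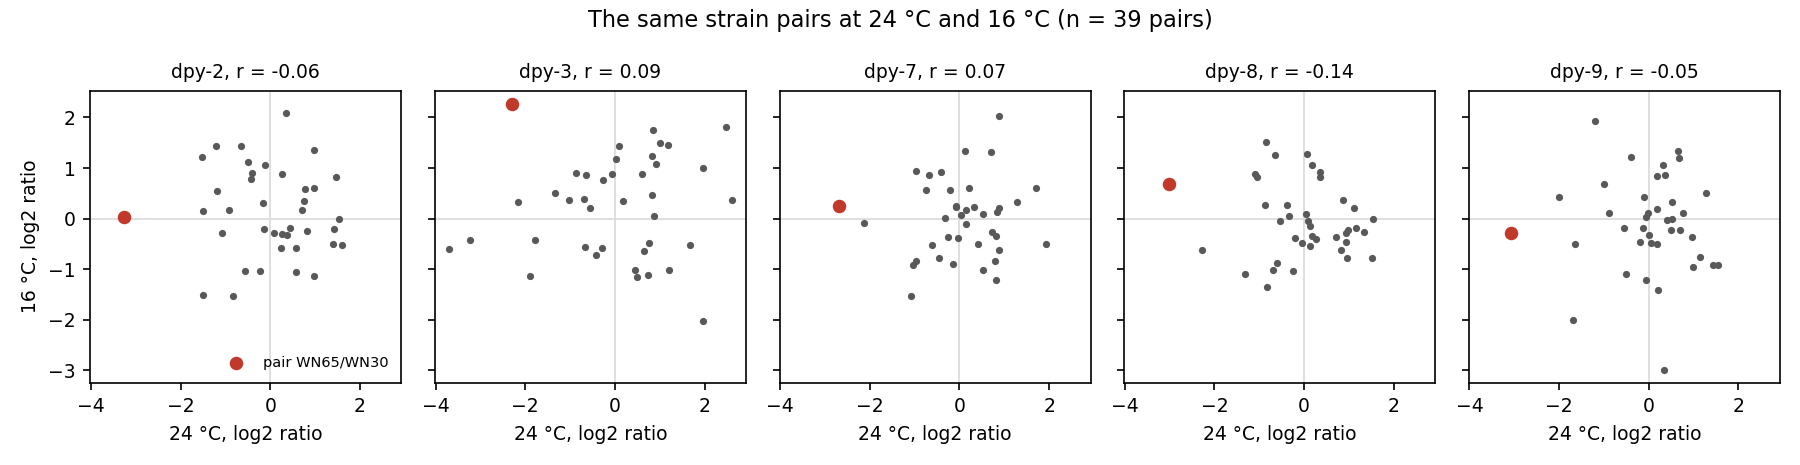
The log2 ratio at 24 °C (horizontal axis) against that at 16 °C (vertical axis) of the same 39 strain pairs, with a panel for each measured furrow collagen and the pair WN65/WN30 as the large point. The points form no line in any panel, and r lies between -0.14 and 0.09.

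The SD between strains over the same 39 pairs was larger at 24 °C than at 16 °C for all 5 genes, but none of the 5 passed the test. For dpy-3 it was 1.45 at 24 °C and 1.00 at 16 °C, a ratio of 1.44 (Pitman-Morgan test over all probes, adjusted p = 0.15, unadjusted p = 0.028). For dpy-8 it was 0.99 at 24 °C and 0.72 at 16 °C, a ratio of 1.37 (adjusted p = 0.22). The ratios were 1.22 for dpy-7, 1.21 for dpy-2 and 1.03 for dpy-9, with adjusted p between 0.49 and 0.94. The median ratio over all probes was 1.08, and 6.12% of all probes were called wider at 24 °C and 3.0% wider at 16 °C. The arrays were scaled within each temperature to unequal median absolute ratios, and the part of that scaling in these values was not tested. The ratio of dpy-9 fell to 0.88 without the pair of WN65 and WN30.

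The gene dpy-10 could not be followed directly. The probe of a gene that overlaps it is named T14B4.19, annotated over 1217 bases of dpy-10, which is 58.5% of its span in WBcel235. Whether that probe takes up dpy-10 RNA cannot be told from the files, and it was not counted as a furrow collagen. Its ratio at 24 °C ran from -1.83 over 0.19 to 2.28, with the lowest value again on the array WN65/WN30. At 24 °C its r was 0.55 with dpy-8 (adjusted p = 0.028), 0.52 with dpy-7 (adjusted p = 0.039), 0.52 with dpy-3 (adjusted p = 0.032), 0.47 with dpy-9 (adjusted p = 0.080) and 0.45 with dpy-2 (adjusted p = 0.14). At 16 °C it was 0.55 with dpy-8 and 0.55 with dpy-2 (adjusted p = 0.059 each) and lay between 0.32 and 0.40 with the other 3 genes. At 24 °C its values sit below those among dpy-2, dpy-7, dpy-8 and dpy-9. At 16 °C those with dpy-8 and dpy-2 lay within the range among these 4 genes, 0.46 to 0.69, and the other 3 lay below it.

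The genes most like the furrow collagens were found by the median of the 5 r values of a probe, and a probe was called related where it passed with at least 4 of the 5 genes in the same direction. At 24 °C 90 of 23227 probes (0.387%) were positively related and 25 (0.108%) negatively. At 16 °C 7 (0.0301%) were positively related and 0 negatively, where 138 probes passed negatively with at least 1 of the 5 genes. Without adjustment of p the rule held for 705 probes positively (3.04%) and 678 negatively (2.92%) at 24 °C, and for 413 (1.78%) and 228 (0.982%) at 16 °C. Without the array WN65/WN30 15 probes were positively and 1 negatively related at 24 °C. The counts at 16 °C lie close to the limit of the rule, since leaving out any 1 of 28 arrays changed the 7 to between 0 and 4. It became 0 without WN60/WN77, WN31/WN44, WN19/WN55 or WN9/WN62.

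The highest median r at both temperatures was that of lpr-5, a lipocalin-related gene. Lipocalin-related proteins are secreted and shape the matrix on the outer face of epithelia before the cuticle is laid down. At 24 °C its median r with the furrow collagens was 0.82, with 0.87 for dpy-7, 0.84 for dpy-9, 0.82 for dpy-8, 0.74 for dpy-2 and 0.49 for dpy-3. At 16 °C its median r was 0.69, and it was called at both temperatures. At 24 °C lpr-4 had a median r of 0.77 and lpr-6 of 0.76, and at 16 °C these were 0.65 and 0.64. The closest single relation was lpr-5 with dpy-7 at 24 °C (adjusted p = 6.2e-09), and at 16 °C it was lpr-4 with dpy-7 (r = 0.81, adjusted p = 5.0e-06). At 16 °C lpr-3 followed with 0.58. In WBcel235 lpr-4 and lpr-5 are direct neighbours on chromosome X, as are lpr-6 and lpr-3, with 1 gene between the 2 pairs. Shared signal between the probes of these related genes was not tested, and the same holds for the collagens.

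The other genes among the 10 highest at 24 °C included noah-2 (median r 0.79), mlt-11 (0.79) and sym-1, a leucine-rich repeat protein of the apical matrix (0.79). H03E18.1 (0.78), idpp-1 (0.76), C11H1.5 (0.75) and osr-1, named for osmotic stress resistance (0.74), completed them. All but mre-11 among the 15 genes named at the 2 ends of the list at 24 °C were called. On leaving out the array WN65/WN30, lpr-4 (0.69) and C11H1.5 (0.69) were no longer called, and the 8 others among the 10 highest were. At 16 °C the 10 highest were lpr-5, wrt-2 (0.67), lpr-4, lpr-6, Y43F4A.1 (0.62), noah-2 (0.62), B0272.3 (0.62), wrt-10 (0.60), lpr-3 and F59B10.5 (0.57). The warthog genes wrt-2 and wrt-10 code for secreted hedgehog-related proteins of the hypodermis. Of these 10, lpr-5, lpr-6, Y43F4A.1 and lpr-3 were called. In both lists of 10 stood lpr-4, lpr-5, lpr-6 and noah-2, 40.0% of each.

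At the low end, the 24 °C arrays put F23F1.6 (median r -0.62), chaf-1, a subunit of the chromatin assembly factor that loads histones behind the replication fork (-0.61), dvc-1, a protease of DNA damage repair (-0.60), mre-11, a nuclease of double-strand break repair (-0.60), and nprl-3, a part of the complex that restrains TORC1 (-0.59). Of these, mre-11 passed with 3 of the 5 genes and was not called. Without the array WN65/WN30 chaf-1, dvc-1 and nprl-3 were not called, at -0.54, -0.52 and -0.54. At 16 °C chaf-1 had a median r of 0.10 and mre-11 of 0.19. The lowest at 16 °C were C08E8.4 (-0.53), T22F3.10 (-0.52), ttr-4, a transthyretin-related gene (-0.49), C53A5.9 (-0.49) and the F-box gene fbxa-24 (-0.49), and none of these was called.

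The probes nearest to dpy-3 were of other genes than those nearest to the 5 together. They were chosen after their values were seen. At 24 °C they were Y65B4BL.1 (r = 0.82), mlt-8, a gene needed for molting (0.77), the alpha-tubulin gene tba-4 (0.75), Y73B3A.2 (0.74) and the collagen gene col-145 (0.73). At 16 °C they were aex-6, the Rab27 of the worm (0.74), Y47G6A.18 (0.74), the collagen gene dpy-4 (0.71), gpi-1, glucose-6-phosphate isomerase (0.69), and tba-4 (0.68). All of these passed with dpy-3 at the other temperature too, except Y65B4BL.1 (r = 0.48 at 16 °C, adjusted p = 0.078). Their median r with the other 4 furrow collagens lay between 0.11 and 0.40 for the 24 °C genes and between -0.08 and 0.09 for the 16 °C genes. Of the 586 probes positively related to dpy-3 at 24 °C and the 278 at 16 °C, 151 were the same, 25.8% of the first and 54.3% of the second. For dpy-7 there were 278 at 24 °C and 188 at 16 °C with 53 shared, 19.1% of the first and 28.2% of the second. For dpy-2, dpy-8 and dpy-9 they were 154, 200 and 264 at 24 °C and 80, 50 and 82 at 16 °C, with 28, 26 and 34 shared.

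Among the other collagens that set body shape, 1 of 12 with a probe was related to at least 4 furrow collagens at 24 °C and 0 at 16 °C. That gene was sqt-3, an early and abundant cuticle collagen, with a median r of 0.54 at 24 °C and 0.40 at 16 °C. Without the array WN65/WN30 it had 0.38 and was not called. The highest median r of this list at 24 °C was that of bli-1, a collagen of the adult struts, 0.62, which passed with too few of the 5 genes. Of the rest, sqt-1 had 0.41 at 24 °C and 0.36 at 16 °C, and sqt-2 and lon-3 had 0.39 and 0.37 at 16 °C. With dpy-3 alone, dpy-4 had r = 0.60 at 24 °C (adjusted p = 0.0060) and 0.71 at 16 °C. The median over the list was 0.23 at 24 °C and 0.14 at 16 °C, where the median over all probes was 0.00 at both temperatures and the 95th percentile was 0.30 at 24 °C and 0.29 at 16 °C. Without adjustment of p, 5 of the 12 met the rule at 24 °C and 4 at 16 °C. The positive shares of all probes were 3.04% at 24 °C and 1.78% at 16 °C, and with adjustment 0.387% and 0.0301%.

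Of the 11 measured genes of collagen processing, 0 were called at either temperature. The highest was phy-2, a subunit of the prolyl 4-hydroxylase that modifies collagen chains, with a median r of 0.55 at 24 °C and 0.36 at 16 °C. The protein disulfide isomerase gene pdi-1 had 0.28 at 24 °C and 0.50 at 16 °C. The list medians were 0.23 at 24 °C and 0.16 at 16 °C, and without adjustment of p 1 gene met the rule at 24 °C and 2 at 16 °C. Positive shares over all probes were 0.387% at 24 °C and 0.0301% at 16 °C with adjustment, and 3.04% and 1.78% without it.

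The molting genes held the most calls of the lists. Of 19 with a probe, 5 were positively related at 24 °C, against 0.387% of all probes, and 0 at 16 °C, against 0.0301%. Beside noah-2 and mlt-11 these were acn-1, an angiotensin-converting enzyme-like protein needed for molting (0.68), fbn-1, a fibrillin-like matrix protein (0.63), and qua-1, a hedgehog-related protein needed for molting (0.61). At 16 °C their median r was 0.62 for noah-2, 0.52 for mlt-11, 0.44 for acn-1, 0.42 for fbn-1 and 0.39 for qua-1, and nas-37, a metalloprotease that opens the old cuticle, had 0.48. Without the array WN65/WN30, noah-2, mlt-11 and acn-1 were called at 24 °C, and fbn-1 and qua-1 were not. The list median was 0.41 at 24 °C, the highest of the 9 lists, and 0.13 at 16 °C. Without adjustment of p, 11 of the 19 met the rule at 24 °C and 8 at 16 °C, against 3.04% and 1.78% of all probes.

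Of a list of genes that respond to loss of furrows or govern that response, 1 of 19 with a probe was called at 24 °C and 0 at 16 °C. It was osm-8, which codes for a mucin-like protein whose loss turns on the osmotic response (median r 0.64 at 24 °C and 0.46 at 16 °C), and without the array WN65/WN30 it had 0.51 and was not called. Without adjustment of p, 2 were positive and 1 negative at 24 °C, and 1 was positive and 1 negative at 16 °C. Unadjusted shares over all probes were 3.04% positive and 2.92% negative at 24 °C, and 1.78% and 0.982% at 16 °C. With adjustment 0.387% of all probes were positive at 24 °C and 0.0301% at 16 °C. Among the response genes, the glycerol synthesis gene gpdh-1 had 0.12 at 24 °C and 0.21 at 16 °C, the detoxification gene gst-4 had 0.13 at 24 °C and -0.18 at 16 °C, and the antimicrobial peptide gene nlp-29 had -0.16 at both temperatures. The most negative were nlp-27 at 24 °C (-0.33) and nlp-34 at 16 °C (-0.44), and nlp-34 passed with dpy-2 alone. The list medians were 0.06 at 24 °C and -0.05 at 16 °C.

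The markers of hypodermis, body wall muscle, intestine, neurons and germline gave no call at either temperature, over 6, 5, 5, 4 and 5 genes with a probe. The highest marker was che-14, a hypodermal protein of apical secretion, with a median r of 0.53 at 24 °C and 0.11 at 16 °C. With dpy-3 alone, one probe of snb-1, the synaptobrevin of neurons, had r = 0.67 at 24 °C and 0.64 at 16 °C, while a second snb-1 probe had 0.26 at 24 °C and 0.09 at 16 °C. The germ granule gene pgl-1 had r = 0.52 with dpy-3 at 24 °C and 0.63 at 16 °C, and the intestinal peptide transporter gene pept-1 had 0.51 at 24 °C. The other neuron, germline and intestine markers had r with dpy-3 from -0.31 (glh-1) to 0.33 (unc-119) at 24 °C. At 16 °C theirs ran from -0.10 (unc-119) to 0.37 (gld-1). Muscle markers had r with dpy-3 from 0.04 (mup-2) to 0.45 (unc-15) at 24 °C and from -0.05 (unc-27) to 0.33 (mup-2) at 16 °C. The part of other tissues in the dpy-3 ratio was not tested. The list medians at 24 °C were 0.14 for hypodermis, -0.01 for muscle, 0.12 for intestine, -0.03 for neurons and -0.09 for germline. At 16 °C they were 0.17, 0.27, 0.28, -0.05 and 0.19 in the same order, so that muscle, intestine and germline markers lay higher than at 24 °C, a difference that was not tested. Without adjustment of p, 1 hypodermis marker met the rule at 24 °C, and 1 muscle and 1 intestine marker did at 16 °C. Over all probes 3.04% did so positively at 24 °C and 1.78% at 16 °C, and 0.387% and 0.0301% with adjustment.

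**Figure D5:**
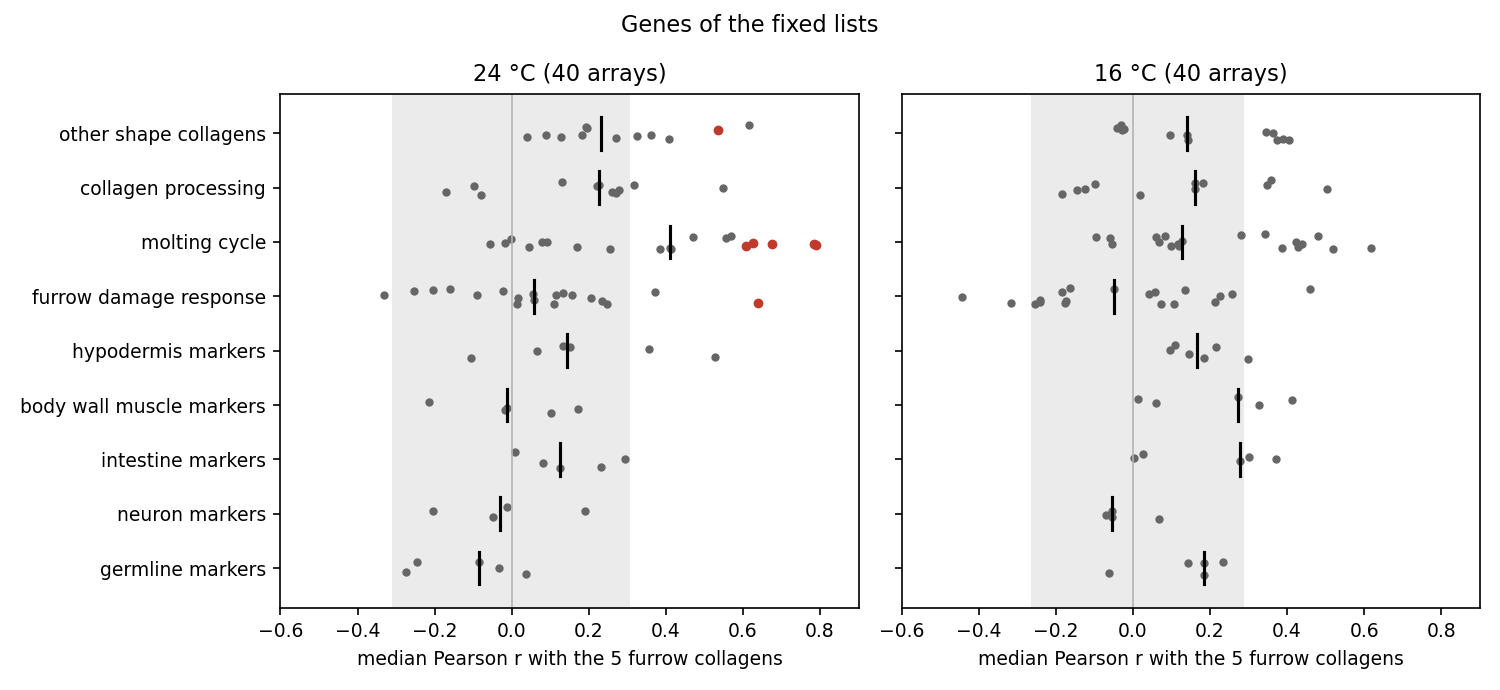
The median Pearson r of each list gene with the 5 measured furrow collagens (horizontal axis), by list (vertical axis), at 24 °C on the left and at 16 °C on the right. Points are genes, the large red points are genes called with at least 4 of the 5 collagens, black bars are list medians and the grey band runs from the 5th to the 95th percentile of all probes. The 7 called genes are all at 24 °C, 5 of them in the molting list.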

How the data were processed

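Each probe has 1 log ratio per array in the authors' table, already normalized, for 23232 probes on 80 two-colour arrays, and the table is complete. Among the submitters' processing tools is limma, whose version is not given, and since it works in base 2 the deposited ratios were read as log2, which is an assumption. The base of the log, the steps and the numerator dye are not given in the sources used here. All samples have a group in the labels, and each of 40 arrays per temperature is 1 sample. Probes were named from the platform's table, through gene identifiers matched to WBcel235 for 17358 probes, and the annotation served only for names, chromosomes and neighbours. Signal over background is unknown, so the number of arrays limits the precision.

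Relations were measured by Pearson r across arrays of a temperature, from each furrow collagen to all other probes, with the two-sided p of r adjusted by Benjamini-Hochberg. Differences in r used Fisher's z, repeats between temperatures used Pearson r over 39 strain pairs, and spreads used the Pitman-Morgan test, each adjusted over all probes. The 20 relations between the collagens and the 5 repeats also had permutation tests of 100000 resamples, two-sided, for r and Spearman's rho. Intervals are 95% intervals of r. The p-values treat arrays as independent and measure the spread between them. A probe was called where it passed with 4 or more of the 5 measured genes. The rule had been written for 6 genes, and dpy-10 has no named probe.

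The 9 lists hold 103 genes, 86 with a probe, and the first probe was used where a gene has several. Genes named are the collagens, the 10 highest and 5 lowest by median r at each temperature and up to 3 genes of a list by size of the median r. Other genes were named after their values were seen, among them the calls and the response genes gpdh-1, gst-4 and nlp-29. The members and the lists were chosen with earlier results of these data known.

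The alternatives were centring and scaling of each array, ranks, leaving out pairs with a recurring strain, removal of 2 principal components, a threshold of 0.01, leaving out the 2 farthest arrays or each array in turn, and the mean over the probes of a gene. Leaving out the array WN65/WN30 was added after the data were seen. Promoter motifs were not searched and no sequence is printed, because no sequence was at hand. The scripts were tested on simulated data. Python 3.11.15, numpy 2.4.6, scipy 1.17.1, pandas 2.3.3 and matplotlib 3.10.9 were used.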

Additional observations from a re-analysis of the deposited data

How the results depend on the processing

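The 6 related pairs of furrow collagens at 24 °C stayed between 6 and 8 under all alternatives, and the counts of 0 for differences in r, repeats and spreads did not move. At 16 °C the 4 pairs became 2 without the 2 arrays farthest from the median, and 3 to 5 otherwise, leaving out single arrays included. The related genes of the lists at 24 °C, 7, became 3 with ranks, without the recurring strains, at a threshold of 0.01, without the 2 farthest arrays and without the array WN65/WN30, and 13 with 2 principal components removed; leaving out each array gave 3 to 9. At 16 °C they were 0 throughout.

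The 90 positively related probes at 24 °C became 54 with ranks, 17 without the recurring strains, 167 with 2 principal components removed, 35 at 0.01, 15 without the 2 farthest arrays and 15 without WN65/WN30, and leaving out each array gave 15 to 105. The 25 negatively related probes became 9, 1, 86, 1, 1 and 1 under the same alternatives in that order, and 1 to 40 on leaving out each array, where 8 arrays moved the count by more than 1.5 times: WN8/WN41 (12), WN9/WN62 (40), WN2/WN52 (14), WN16/WN34 (13), WN65/WN30 (1), WN76/WN59 (38), WN5/WN25 (10) and WN3/WN22 (16). The 7 positively related probes at 16 °C became 4 with scaled arrays, 14 with ranks, 0 without the recurring strains, 0 with 2 principal components removed, 0 at 0.01 and 1 without the 2 farthest arrays, and leaving out each array gave 0 to 7. At 24 °C these alternatives overlap. The array WN65/WN30 was also left out with the recurring strains and, for dpy-2, dpy-7, dpy-8 and dpy-9, as 1 of the 2 farthest arrays. It was the only array whose removal alone moved the 90 by more than 1.5 times. The causes were not tested.

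Values that changed sign were small. The difference in r, 24 °C minus 16 °C, turned to -0.027 for dpy-2 with dpy-3 without the recurring strains and to -0.11 without the 2 farthest arrays, where dpy-2 with dpy-8 turned to -0.052. Over the arrays left out in turn it lay between -0.02 (without WN65/WN30) and 0.14 for dpy-2 with dpy-3 and between -0.015 (without WN65/WN30) and 0.13 for dpy-2 with dpy-8. It turned to -0.018 for dpy-7 with dpy-9 under ranks. The repeat r of dpy-3 turned to -0.016 without the 2 farthest pairs, and that of dpy-9 lay between -0.16 and 0.028 (without WN15/WN35) over the pairs left out in turn. The spread ratio of dpy-7 turned to 0.96 without the 2 farthest pairs. That of dpy-9 turned to 0.92 with scaled arrays, 0.85 without the recurring strains, 0.80 without the 2 farthest pairs and between 0.88 (without WN65/WN30) and 1.18 over the pairs left out in turn. The mean over several probes applied to no furrow collagen, since each has 1 probe, and moved no list count. No paired analysis was possible for the relations between genes, because these are tested within a temperature; the repeat and spread tests are paired by strain pair.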
